A study of Mus musculus with 5 samples.

Results

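Binding of NEUROD2 was described at the genes of 10 neuronal RNA-binding proteins and splicing regulators: Elavl2, Elavl3, Elavl4, Celf2, Celf4, Nova1, Nova2, Rbfox1, Rbfox2 and Rbfox3. The 10 genes were chosen as families by function, with earlier results of these data known, and no threshold on a measured value was used. The locus of each gene was its span in the mm10 build of the mouse genome, taken from the transcript with the longest span, with 50 kb on either side. A peak belonged to a locus when its midpoint lay inside that window, and overlapping peaks were merged into regions. The 10 loci, of 21938 protein-coding genes annotated, held 511 of the 94621 peaks (0.540%) and 281 merged regions, beside 53833 regions in the whole genome.

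The data were ChIP-Seq peak lists from the cerebral cortex (dorsal telencephalon) of E14.5 BALB/c mouse embryos, with no treatment and no genetic change. Chromatin pooled from embryos of several litters was precipitated with 3 antibodies against NEUROD2 (ab1 raised in mouse, ab2 and ab3 raised in rabbit), 1 library for each. GFP antibodies of both host species gave 2 control libraries, against which peaks were called, and ab2 and ab3 shared the rabbit GFP control. The libraries are therefore 3 views of a single condition with different antibodies. Whether they came from the same pool of embryos is not given in the sources used here, no antibody was repeated, and there is no other group, so no test between groups was possible. The whole cortex was used, so cells of different types contribute to each peak in unknown shares.

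NEUROD2 is a basic helix-loop-helix transcription factor of developing excitatory neurons, which binds DNA at E-boxes, short sites of the form CANNTG, together with a ubiquitous E protein partner. The 10 genes encode proteins that act one step later, on RNA. The ELAVL (Hu) proteins bind U-rich stretches of mRNA and affect its stability, splicing and translation, and Elavl2, Elavl3 and Elavl4 are the family members used mainly by neurons. CELF proteins bind GU-rich RNA, NOVA proteins control the inclusion of exons in transcripts of synaptic proteins, and RBFOX proteins regulate alternative exons from binding sites in the flanking introns. RBFOX3 is the protein known to histologists as NeuN, the standard marker of mature neurons.

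The sequences of the strongest sites are shown here because they let the E-box closest to the middle of each be seen in its context. Each is 60 bases of the plus strand of mm10, 5′ to 3′, centred on the E-box closest to the midpoint of the region with the highest summed score in that locus. Capitals mark the core of the extended E-box, which reads CAGCTG or CATATG, or CAGATG with its reverse complement CATCTG, and is followed by G or T on the strand on which it is read. Windows that overlap an annotated exon are not shown. The windows lie at chr4:91310928-91310987 for Elavl2, chr4:110292571-110292630 for Elavl4, chr2:6667732-6667791 for Celf2, chr12:46676492-46676551 for Nova1, chr7:18942884-18942943 for Nova2, chr16:6310876-6310935 for Rbfox1 and chr11:118759467-118759526 for Rbfox3. All of these lie in introns of the named gene except that of Nova1, which lies downstream of the gene.
Elavl2: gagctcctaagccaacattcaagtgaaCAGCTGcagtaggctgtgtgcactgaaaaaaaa
Elavl4: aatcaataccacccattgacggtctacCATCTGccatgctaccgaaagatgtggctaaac
Celf2: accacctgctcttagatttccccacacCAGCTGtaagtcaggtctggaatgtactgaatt
Nova1: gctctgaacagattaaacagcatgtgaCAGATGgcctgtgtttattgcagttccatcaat
Nova2: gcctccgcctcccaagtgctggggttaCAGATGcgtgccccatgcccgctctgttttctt
Rbfox1: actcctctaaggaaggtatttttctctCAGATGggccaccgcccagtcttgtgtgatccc
Rbfox3: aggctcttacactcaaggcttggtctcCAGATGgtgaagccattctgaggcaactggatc
The 2 palindromic CAGCTG cores belong to Elavl2 and Celf2, and the other 5 windows hold CAGATG or its reverse complement CATCTG. The E-box lay 4 bp from the region's midpoint at Celf2, 5 bp at Nova1 and 57 bp at Elavl2. At Nova2 (112 bp), Elavl4 (135 bp), Rbfox3 (158 bp) and Rbfox1 (176 bp) it lay farther out, and the central 200 bp of these regions, the window counted further on, held none.

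The strongest region of Rbfox2 is shown apart, because its E-boxes are arranged as a repeat. The region lies in intron 1, at chr15:77278700-77280295, and held 20 extended E-boxes in 1596 bp, or 12.5 per kb, of which 17 read CATCTG on the plus strand. Of the 19 spacings between neighbouring E-boxes, 16 were between 52 and 54 bp. The 220 bases at chr15:77279512-77279731 contain 4 of the units.
Rbfox2: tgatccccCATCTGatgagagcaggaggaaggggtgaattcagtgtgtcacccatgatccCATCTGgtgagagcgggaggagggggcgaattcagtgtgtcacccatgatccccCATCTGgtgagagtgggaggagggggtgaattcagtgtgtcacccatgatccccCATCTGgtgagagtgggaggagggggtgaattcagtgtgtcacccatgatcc
None of these 20 E-boxes lies in bases that the assembly marks as repeats. By contrast, 3 of the 4 E-boxes in the strongest Nova2 region and 2 of the 11 in that of Rbfox3 lie in marked repeats, and the other 7 strongest regions had none there. Reads that mapped to several places had been removed before peak calling, and how many were lost over the Rbfox2 repeat was not tested.

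All 3 antibodies called peaks in the loci. There were 270 peaks with ab1, 187 with ab2 and 54 with ab3, from lists of 51841, 35310 and 7470 peaks. Per 1000 peaks of its own list, each antibody placed 5.21, 5.30 and 7.23 peaks in the loci, a mean of 5.91 ± 1.14 (SD, n = 3 antibodies). The share was highest with ab3, whose list was the shortest, and ab1 and ab2 lay close to each other. At single loci the shares of the antibodies were close for Nova1 (0.130 ± 0.0133 per 1000), Celf2 (0.927 ± 0.0442) and Celf4 (0.716 ± 0.0516). They spread widely for Elavl3 (0.277 ± 0.224) and Nova2 (0.0956 ± 0.0881, with no ab3 peak). Some of these shares rest on few peaks. With ab1, ab2 and ab3, Nova1 had 6, 5 and 1, Elavl3 8, 5 and 4, and Nova2 9, 4 and 0. Their SDs therefore say little about agreement between the antibodies.

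Most regions were found with more than 1 antibody. Of the 281 regions, 114 had peaks of a single antibody, 117 had peaks of ab1 and ab2, and 50 had peaks of all 3 antibodies. Regions with at least 2 antibodies, called shared regions from here on, numbered 167 of 281 (59.4%), beside 59.9% of all regions in the genome. Regions with all 3 antibodies made up 17.8%, beside 13.3% in the genome. Without ab1, or without ab2, the shared regions numbered 50 each time. No region combined ab3 with only 1 other antibody, and of the single-antibody regions 95 were of ab1, 16 of ab2 and 3 of ab3. Of the 3 regions called with ab3 alone, 2 lay in coding exons of Elavl3, exon 7 with a score of 118.8 and exon 4 with 141.5, and the third lay at the Rbfox1 locus with 51.2.

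**Figure D1:**
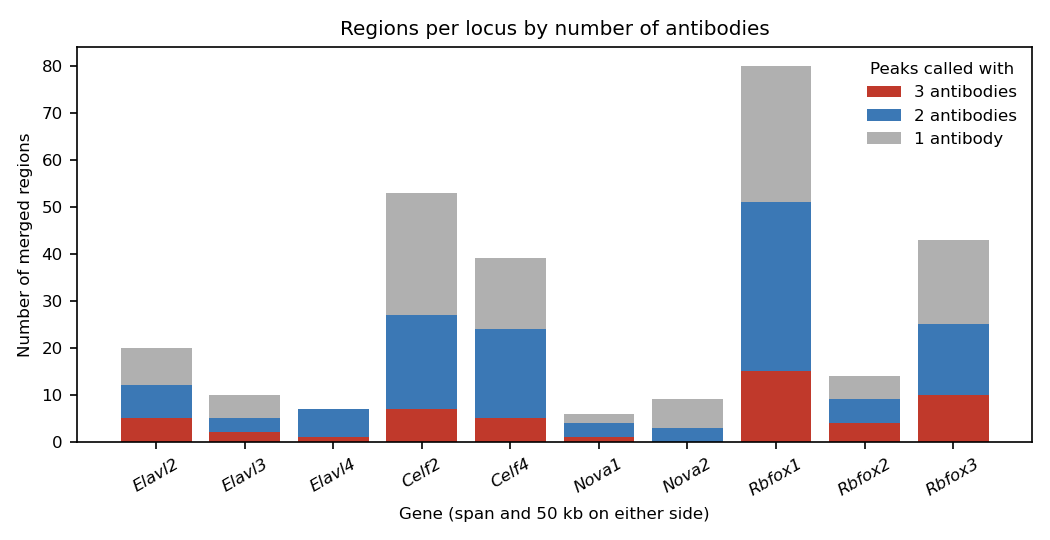
Number of merged NEUROD2 regions (vertical axis) in each of the 10 loci (horizontal axis), stacked by the number of antibodies with a peak. Rbfox1 has the tallest bar with 80 regions, Elavl4 has no region of a single antibody, and Nova2 has none of all 3 antibodies.

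The loci differed widely in how many shared regions they held. Rbfox1 had 51, Celf2 27, Rbfox3 25, Celf4 24, Elavl2 12, Rbfox2 9, Elavl4 7, Elavl3 5, Nova1 4 and Nova2 3. The gene with the most, Rbfox1, also had the longest span (1467.7 kb), and the shortest genes, Elavl3 (37.0 kb) and Nova2 (39.4 kb), were among those with the fewest. Several of these counts changed with the setting. The gene span alone held 1 at Elavl3, 1 at Nova1 and 7 at Elavl2. With 100 kb on either side Elavl3 had 10. A peak score of at least 100 left 17 at Celf2, 15 at Celf4 and 3 at Elavl3. The main counts rest on ab1 and ab2. Without ab1, Rbfox1 had 15 shared regions, Rbfox3 10, Celf2 7, Celf4 and Elavl2 5 each, Rbfox2 4, Elavl3 2, Elavl4 and Nova1 1 each and Nova2 0. Without ab2 the counts were the same except for Rbfox3 (11) and Elavl3 (1), so in both cases Rbfox3 came before Celf2 and Nova2 held none. All 10 loci held at least 1 shared region, as did 67.6% of protein-coding genes with the same window, and 9 held a region of all 3 antibodies, beside 26.7%. These background shares come from genes with a median span of 17.2 kb, whereas the members had a median span of 188.6 kb and 8 of the 10 were longer than 90% of coding genes.

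Counted per length of window, the loci still held more shared regions than the median coding gene. The median over all protein-coding genes was 0.95 shared regions per 100 kb of window, and all 10 members lay above it, as 50% of genes do. The lowest densities were those of Nova1 (1.78 per 100 kb) and Nova2 (2.15), and the median of the 10 was 3.04. Celf4 was the densest with 6.38 per 100 kb, higher than 97.8% of coding genes, followed by Elavl2 with 4.81 (94.8%) and Rbfox3 with 4.80 (94.7%). Between these ends lay Elavl3 with 3.65, Rbfox1 with 3.25, Celf2 with 2.82, Elavl4 with 2.82 and Rbfox2 with 2.74. Among the 2434 coding genes of at least 100 kb, whose median density was 1.31, all 8 long members again lay above the median, and Nova1 was denser than 63.3% of these genes and Celf4 than 98.3%. Densities have no replicate error, because each locus is counted once. The order depended on the window and on the antibodies. Elavl3 and Nova2 span only 37.0 and 39.4 kb of windows of 137.0 and 139.4 kb. With the gene span alone, Nova2 rose to 5.07 per 100 kb, next after Celf4 (7.96), and Elavl4 rose to 4.72. Nova1 fell to 0.804 and Elavl3 to 2.70, each with 1 shared region. With 100 kb on either side, Nova2 fell to 1.25, beside a median of 1.13 over coding genes. In the main window the antibodies moved the order. Without ab1, Celf4 fell to 1.33 per 100 kb, below Elavl2 (2.01), Rbfox3 (1.92) and Elavl3 (1.46), and without ab2 it also had 1.33, below Rbfox3 (2.11) and Elavl2 (2.01). In both cases 26.8% of coding genes held any shared region, so the median over coding genes was 0, and the 9 members above it are simply those with at least 1.

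**Figure D2:**
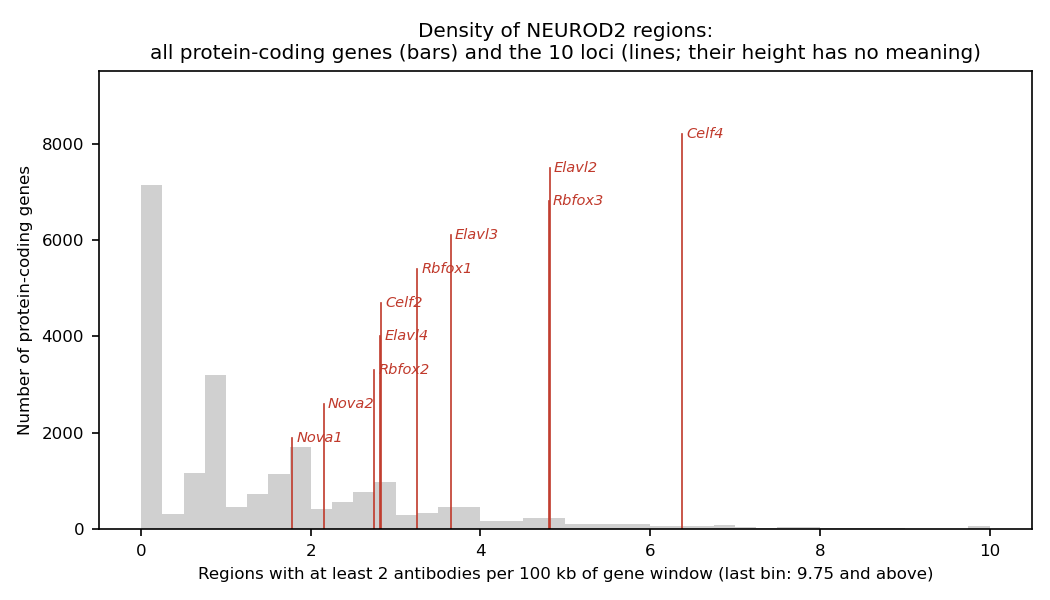
Number of protein-coding genes (vertical axis, grey bars) by the density of regions with at least 2 antibodies per 100 kb of gene window (horizontal axis), with each of the 10 loci marked by a red line whose height carries no value. All lines lie to the right of the median of 0.95, from Nova1 at 1.78 to Celf4 at 6.38.

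The shared regions lay mostly in introns, which also make up most of the windows. Of the 167, 134 (80.2%) were intronic, beside 77.9% of the bases of the windows. Of the intronic regions, 26 lay in intron 1. Of the regions outside introns, 16 lay upstream, 13 downstream and 4 in exons. The exonic regions lay in coding exon 4 of Celf4, coding exon 4 of Nova2, the 5′ UTR of Rbfox2 in exon 1 and the 3′ UTR of Celf2 in exon 16. The median distance from the start site was 169.4 kb, and 161 regions lay over 10 kb and 133 over 50 kb away. Within 1 kb of the longest transcript's start of any coding gene lay 7 of the 167 (4.19%), beside 4101 of 32261 (12.7%) in the genome. By all annotated starts, 17 of the 167 lay within 1 kb of one of the member. In the genome 5454 of 32261 lay that near one of any coding gene. Gene length was not matched in these comparisons. By the start of each gene's longest transcript, the closest coding start was the member's in 130 regions and another gene's in 37. Some of the 37 lay nearer an internal start of the member. Examples are the Celf2 region at 674.4 kb, 25 bp from such a start, and the Rbfox2 region at 153.2 kb, 50 bp from one. Those 37 include 10 regions inside or beside the 3′ part of Celf2, closest to Usp6nl, 10 at the 3′ part of Rbfox1, closest to Tmem114, 8 at Rbfox3, closest to Engase or Enpp7, and 4 of the 5 at Elavl3.

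**Figure D3:**
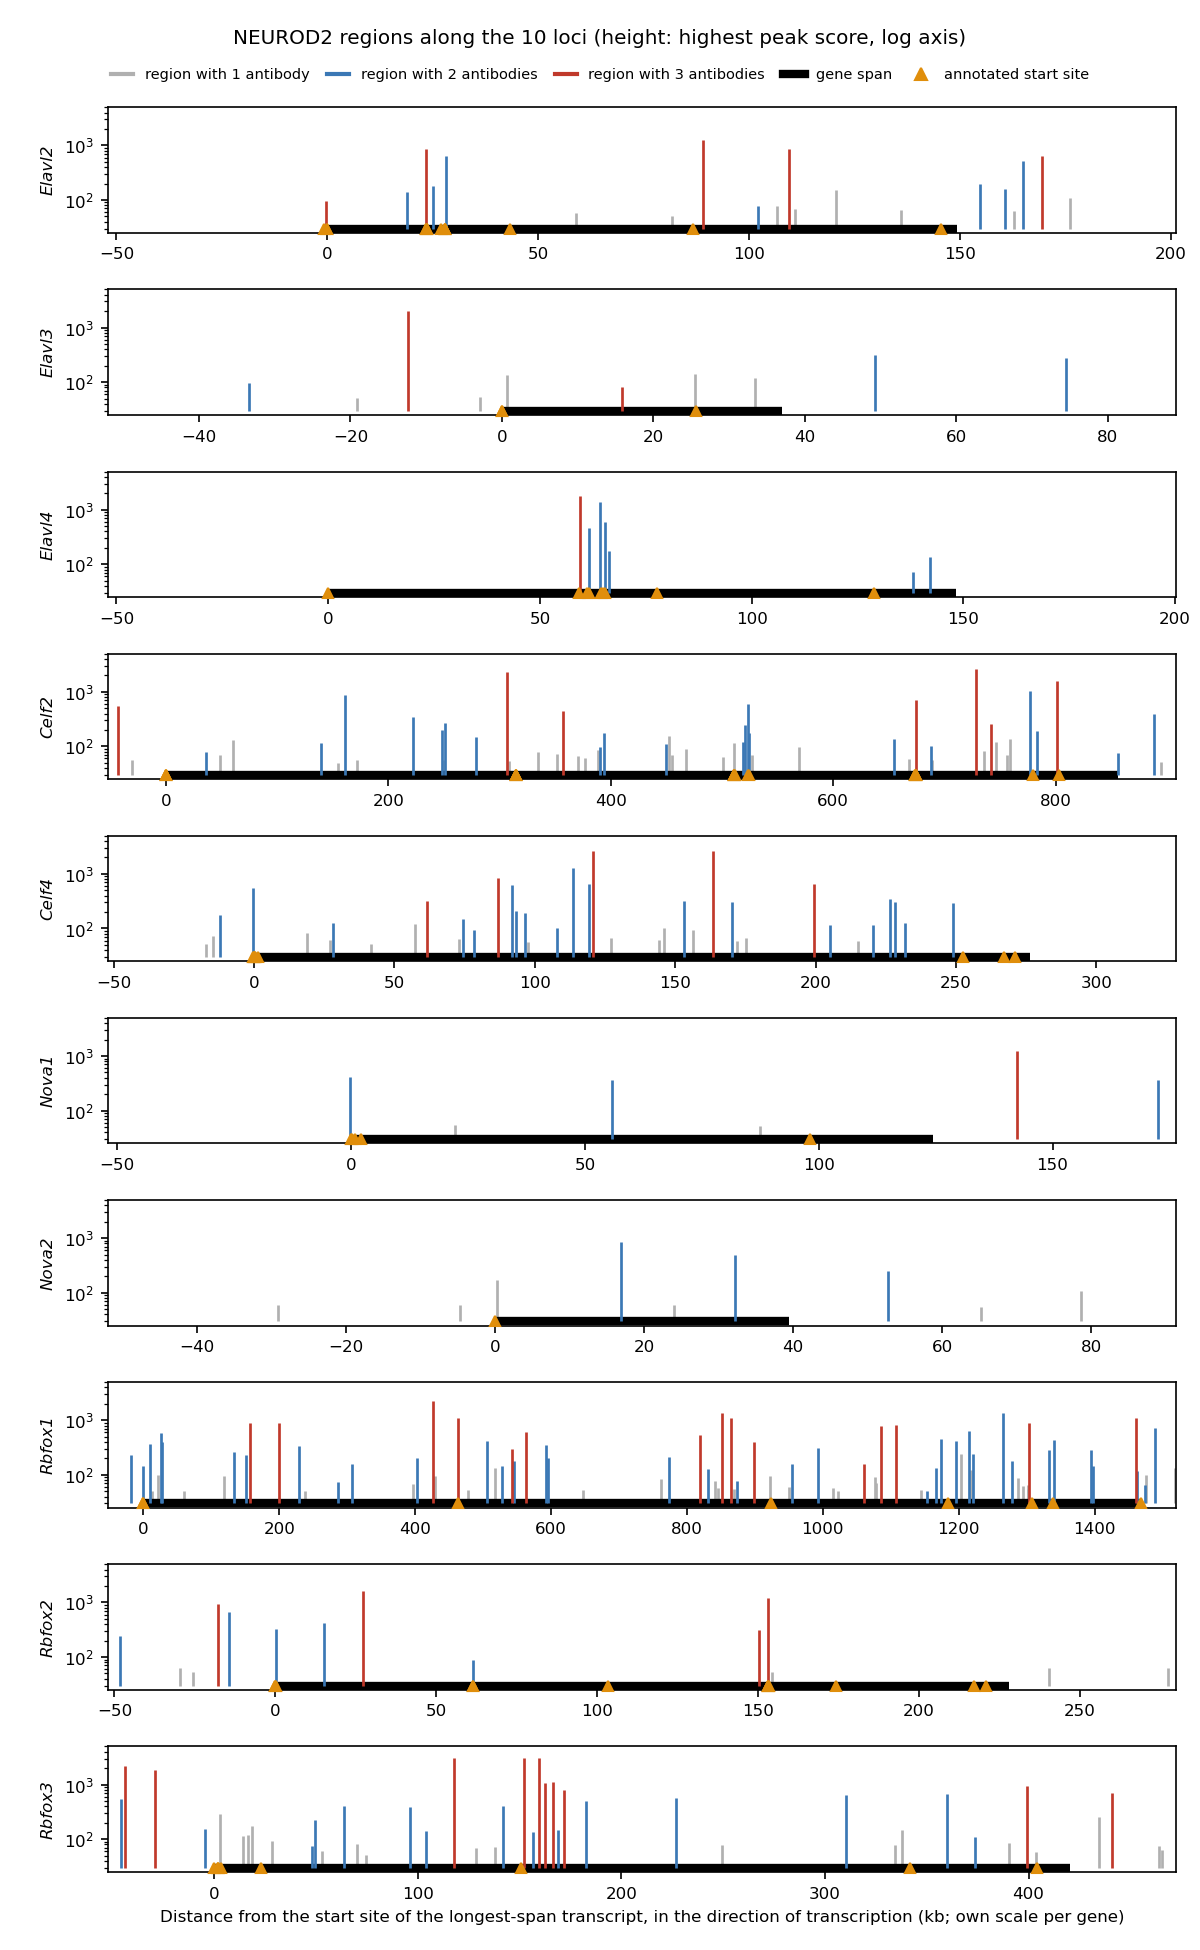
Position of each merged region along the 10 loci (horizontal axis, kb from the start of the longest transcript, own scale per gene) against its highest peak score (vertical axis, log scale), coloured by the number of antibodies, with the gene span as a black bar and annotated start sites as triangles. Rbfox3 and Elavl4 show tight groups of regions around 160 and 60 kb inside the gene, and the tall lines of Celf4 stand in its long intron 2.

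Rbfox3, the gene of NeuN, carried the region with the highest score of the 10 loci with each of the 3 antibodies. Its strongest region, 4359 bp wide and 152.3 kb inside the gene in intron 2, scored 3100 with ab1, 2924 with ab2 and 882 with ab3. The files do not name the score. From the study's methods and the lowest value of 50 it was read as the p-value of MACS on a −log10 scale, times 10, a measure of confidence that is not scaled between libraries. Other regions in the same intron, at 117.8 kb (3100, 2354 and 358) and 159.7 kb (3100, 1713 and 299), also reached 3100 with ab1, a ceiling shared by 661 ab1 peaks in the genome, so ab1 scores cannot rank these 3 regions or any others at the ceiling. Within 20 kb Rbfox3 held up to 7 shared regions, the most of any member. A pair of strong regions lay upstream, at -28.8 kb (1835, 1132 and 162) and at -43.7 kb (2190, 792 and 80.9) from the start, the farther one closest to Enpp7. No shared region had its midpoint within 1 kb of an annotated start of Rbfox3. The closest to the longest transcript's start lay upstream at -4.6 kb (151 with ab1 and 85.7 with ab2). By any annotated start, the closest was the strongest region itself, 1702 bp from an internal one. Its width carries it over that internal start and over the RefSeq promoter there at chr11:118760992-118761291.

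Rbfox1, a splicing regulator with one of the longest genes of the genome, held the most regions with all 3 antibodies, 15 of its 80. Its strongest region lay 425.7 kb inside the gene in intron 2 and scored 2280, 1091 and 183 with ab1, ab2 and ab3. The region at 463.7 kb, with scores of 1106, 577 and 66.95, lay 52 bp from an annotated internal start. At the start of the longest transcript the scores were low by comparison, 144 with ab1 and 98.1 with ab2, and ab3 called no peak. Shared regions spread over 1507.4 kb of the window with a median gap of 22.0 kb and a largest gap of 178.7 kb.

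Rbfox2, the family member with the widest expression outside neurons, had 9 shared regions. The repeat region at 27.4 kb scored 1647, 1139 and 261. A second region, 153.2 kb inside the gene and 50 bp from an internal start, scored 1212, 624 and 73.6, and the region at the longest transcript's start, 264 bp downstream, scored 329 with ab1 and 159 with ab2. A weak region at 61.3 kb, with 85.7 and 87.6, lay 15 bp from a further internal start. Upstream of the gene, a region at -17.9 kb was called with all 3 antibodies (928, 379 and 60.2).

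Among the CELF genes, Celf4 on chromosome 18 had the higher density and Celf2 on chromosome 2 the greater number of regions. The strongest Celf4 regions both lay in intron 2, at 163.4 kb (2673 with ab1, 1410 with ab2 and 92.3 with ab3) and at 120.8 kb (2661, 1165 and 203). With ab1 and ab2 the region at 163.4 kb was the higher, and with ab3 the region at 120.8 kb was. At the Celf4 start a region of 554 with ab1 and 407 with ab2 had no ab3 peak. Celf2 had no shared region within 1 kb of the start of its longest transcript, the closest being 36314 bp away. Its strongest region lay 728.2 kb downstream in intron 4 (2587, 1201 and 201), followed by one at 306.6 kb in intron 2 (2335, 663 and 54.9). Regions at 674.4 kb (702, 265 and 55.6) and 523.4 kb (594 with ab1 and 227 with ab2) lay 25 and 42 bp from annotated internal starts of Celf2.

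The neuronal Hu genes differed in where the binding lay. At Elavl4 (HuD) all 7 shared regions were intronic, 5 of them lay within 20 kb, and none lay near the start of the longest transcript, which was 59443 bp from the closest. Instead 4 regions between 59.4 and 65.4 kb lay 5 to 256 bp from internal starts. Their scores with ab1 and ab2 were 1742 and 847 at 59.4 kb, 470 and 414 at 61.6 kb, 1401 and 673 at 64.1 kb, and 594 and 162 at 65.4 kb, and only the first of these had an ab3 peak, with 97.2. At Elavl2 (HuB), a region 278 bp upstream of the start was weak but called with all 3 antibodies (83.4, 95.2 and 51.7). Stronger regions stood at its internal starts, 23.5 kb (874, 460 and 65.6) and 28.2 kb (646 with ab1 and 325 with ab2) into the gene, and the strongest at 89.1 kb in intron 2 (1251, 488 and 84.8), 2502 bp from the closest annotated start. Elavl3 (HuC) is short and its window holds 7 other coding genes. Its strongest region, upstream at -12.4 kb (1986, 1357 and 252), lay closest to the start of Gm49318, and at its own start, 667 bp downstream, only ab1 called a peak (137).

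The NOVA genes had the fewest shared regions. At Nova1 the strongest region lay downstream of the gene, 142.4 kb from the start, with 1219, 557 and 91.8, and it was the only 1 of its 4 shared regions with an ab3 peak. At the Nova1 start, ab2 scored higher than ab1 (412 against 242), as it did in 17 of the 167 shared regions. Nova2 had no ab3 peak at all. Its strongest region, 16.9 kb inside the gene in intron 2, scored 867 with ab1 and 325 with ab2, and at its start, 216 bp downstream, only ab1 called a peak (173). The window of Nova2 holds 6 other coding genes, and 2 of its 3 shared regions were closest to Nanos2.

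By the start of the longest transcript, 5 of 10 members (Elavl2, Celf4, Nova1, Rbfox1 and Rbfox2) had a shared region within 1 kb, beside 20.8% of all protein-coding genes. Leaving out ab1 or ab2 left 1 member, since of these regions only that of Elavl2 had an ab3 peak. With every annotated start of the gene, 7 members did, with Elavl4 and Celf2 added, beside 24.8% of coding genes, and 17 regions were involved. Coding genes had a median of 3 annotated starts, Elavl2 and Celf2 had 15 and 22, and Nova2 had 1, so the chance of a match is not equal between genes. RefSeq promoters, each 300 bp long from the GRCm38.p6 annotation, were held for 8 of the 10 members, and those of Celf4 and Rbfox2 were not used here. Of their 21 promoter entries, some of which overlap each other, 14 overlapped a shared region and 5 a region of all 3 antibodies, beside 16.6% and 1.74% of the 32851 promoters in the table. Joined where they overlap, the 21 entries form 16 separate stretches, of which 10 overlapped a shared region and 4 a region of all 3 antibodies.

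A gene score after the ClosestGene method was also computed from the shared regions. Each added a weight to the gene, coding or not, whose longest transcript had the closest start. The weight fell with distance, with a decay length of 5000 bp. The study's subtraction of a score from random peaks was left out, so the score and its threshold are not those of the study. The threshold was set at 1 SD above the mean of the 16084 genes that were assigned a shared region, which gave 0.993. Above it lay 3 members, Rbfox1 (1.14), Rbfox2 (1.09) and Celf4 (1.02), and 6.35% of protein-coding genes. Nova1 (0.956) and Elavl2 (0.946) lay just below it. Rbfox3 scored 0.401 and Elavl3, Nova2, Celf2 and Elavl4 scored 0.0415 or less. The 3 members above the threshold and the 2 just below it are those with a shared region within 1 kb of the longest transcript's start, from which the score is counted. Without ab1 or without ab2, each with its own threshold, Elavl2 was the 1 member above it, and a decay length of 1000 bp put 5 members above it. Celf4 lost its call with a decay length of 50000 bp (1.78 against a threshold of 2.22) and with protein-coding starts alone (1.02 against 1.08), which left Rbfox1 and Rbfox2.

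The scores of the antibodies rose together over the shared regions. Across the 167 regions, the log10 scores of ab1 and ab2 had a Pearson r of 0.893 and a Spearman rho of 0.873, beside 0.885 for r over all such regions in the genome. Over the 50 regions of all 3 antibodies, r was 0.665 between ab1 and ab3 and 0.803 between ab2 and ab3. These are descriptions across regions of the same 3 libraries, which share tissue and, for ab2 and ab3, the control. The median ratio of the ab1 to the ab2 score was 1.79, and that of the ab1 to the ab3 score was 11.1. Regions found with more antibodies also had higher ab1 scores, with a median of 68.4 for ab1 alone, 232 with 2 antibodies and 918 with 3.

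**Figure D4:**
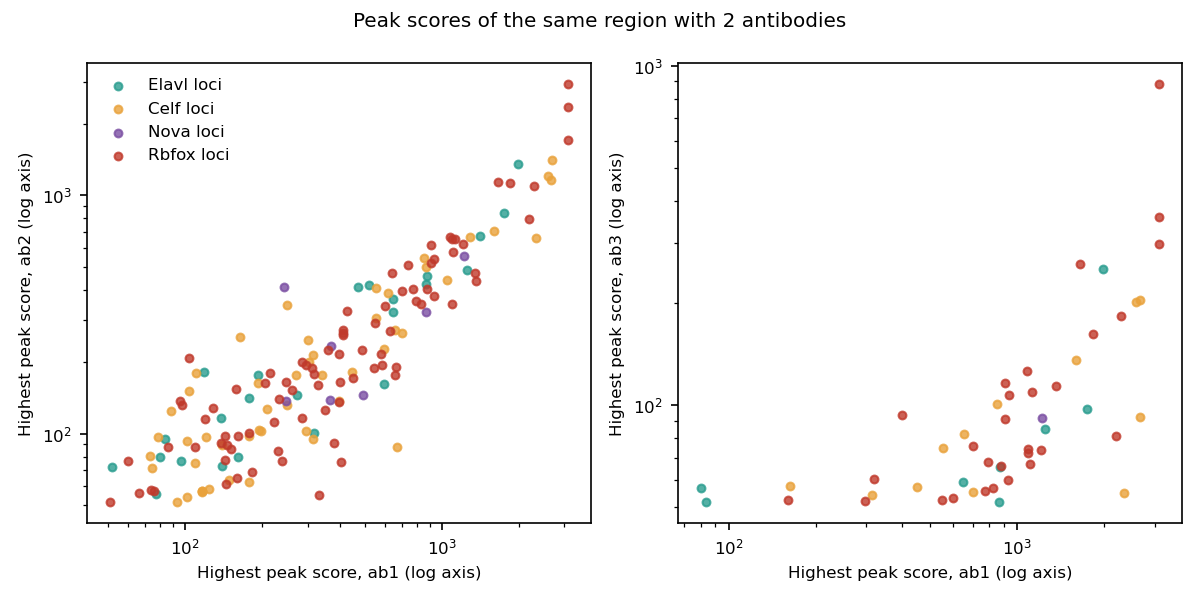
Highest peak score of the same region with ab1 (horizontal axes) against ab2 (left, 167 regions) and ab3 (right, 50 regions), on log axes and coloured by gene family. Scores rise together in both panels, and the 3 Rbfox3 regions at the ab1 ceiling of 3100 stand in a vertical line on the right.

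The extended E-box was more frequent at the centres of the regions than in their flanks, and its share depended on the window. Of the 167 shared regions, 107 had it in their central 200 bp (64.1%, 95% Wilson interval 56.6 to 71.0%), beside 59.7% of all shared regions in the genome, and in the central 100 bp the share was 40.7%. Flanking windows of the same size, set 1000 bp outside each region, held it 31 times on the left (18.6%) and 41 times on the right (24.6%). The interval covers counting error only, and it includes the genome's share, so a difference between the loci and the genome was not detectable at this number of regions. In the peaks of each antibody taken alone, ab1 had a share of 67.4%, ab2 of 65.8% and ab3 of 70.4%, a mean of 67.9 ± 2.33% (SD, n = 3 antibodies). By class, regions of 1, 2 and 3 antibodies had the E-box in 67.5%, 59.8% and 74.0%, with intervals that overlap, and the genome's shares were 57.0%, 58.6% and 63.4%. The interval of the regions of 1 antibody, 58.5 to 75.4%, lies above the genome's 57.0%. For 2 antibodies (50.8 to 68.3%) and 3 antibodies (60.4 to 84.1%) the interval includes the genome's share. Distance from start sites was not matched between the loci and the genome, and no test was made.

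**Figure D5:**
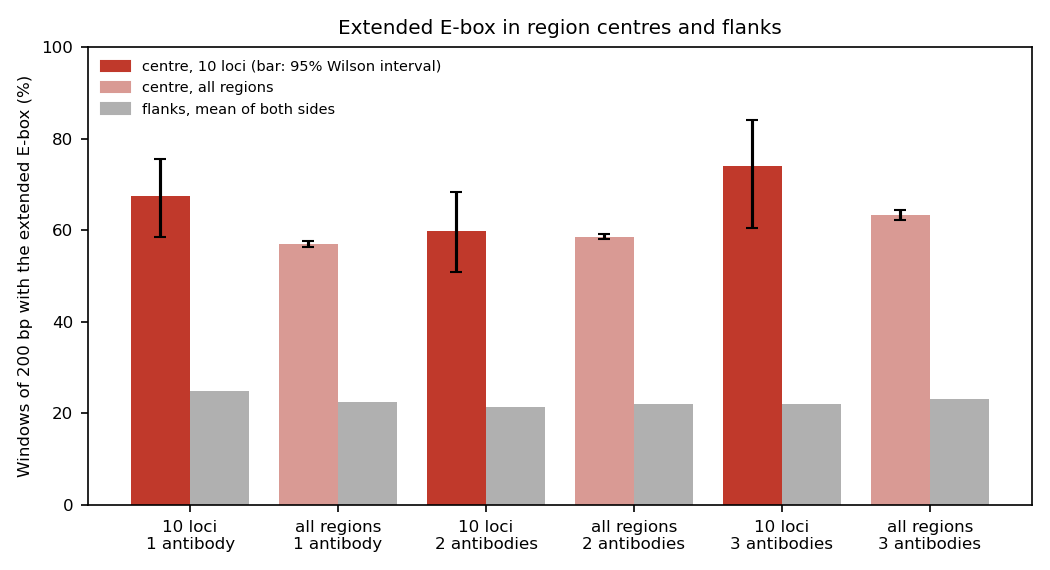
Share of 200 bp windows with the extended E-box (vertical axis, %) for regions of 1, 2 and 3 antibodies in the 10 loci and in the genome, with 95% Wilson intervals on the centre bars, beside the mean of both flanking windows in grey. Centres lie between 57.0% and 74.0% in every class, and each grey bar is less tall than the centre bar beside it.

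Counted by the 6 bases of the core alone, whatever base follows it, CAGATG or its reverse complement CATCTG was the most frequent, in 45.5% of the shared regions, followed by CAGCTG in 25.7% and CATATG in 11.4%. The genome's shares were 43.1%, 28.1% and 11.7%, so the 10 loci used the forms in the same order. Any CANNTG was found in 84.4% of centres and in 68.3% of flanks. The closest E-box lay a median of 36 bp from the midpoint, and in 46 of the 107 regions within 25 bp. Of the 156 E-boxes in the centres, 3 lay in bases marked as repeats (1.92%), beside 5.46% in the genome.

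The members differed in their E-box share. Of the loci with over 20 shared regions, Rbfox1 had the E-box in 41 of 51 regions (80.4%, interval 67.5 to 89.0%) and Celf2 in 21 of 27 (77.8%, 59.2 to 89.4%), whereas Rbfox3 had it in 12 of 25 (48.0%, 30.03 to 66.5%) and Celf4 in 11 of 24 (45.8%, 27.9 to 64.9%). The intervals of Rbfox1 did not overlap those of Rbfox3 and Celf4, and those of Celf2 did. The loci were set side by side after their values were seen, and no test was made. Flanks held the E-box in 17.6% at Rbfox1 and 16.7% at Celf2, beside 34% at Rbfox3 and 25% at Celf4. Centres had 48.8% GC at Rbfox1 and 46.9% at Celf2, beside 54.9% at Rbfox3 and 55.4% at Celf4. Only the central 200 bp was counted, whatever the width of the region. The strongest Rbfox3 region, 4359 bp wide, held 11 E-boxes but none there. The part of flanks, GC and width was not tested. Lower counts were found at Elavl2 (6 of 12), Rbfox2 (6 of 9), Elavl4 (4 of 7), Elavl3 (3 of 5), Nova1 (2 of 4) and Nova2 (1 of 3).

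The E-box share was lower among regions at start sites than among the others, with intervals that did not overlap, and the difference was not tested. Within 1 kb of an annotated start of the member it was found in 5 of 17 regions (29.4%, interval 13.3 to 53.1%), and farther away in 102 of 150 (68.0%, 60.2 to 74.9%). In the genome the shares were 26.9% near a coding start and 66.3% farther away. The flanks in the loci differed too, with the E-box in 2.94% of those of the 17 regions near member starts and 23.7% of the others. In the genome the flanks were alike, with 21.2% near coding starts and 22.6% farther away. The centre stood above its flanks in each set, though by little near coding starts in the genome (26.9% against 21.2%). Base composition and width moved with this difference, since the centres near member starts had 60.5% GC and the others 50.4%, and the regions had median widths of 1386 and 874.5 bp. Their part in the result was not tested. Of the 21 RefSeq promoters of the members, 3 held the extended E-box, all of Elavl4 and lying in 2 of the 16 separate stretches, and of all 32851 promoters 26.3% did. All 3 antibodies were present in 6 of the 17 regions near member starts (35.3%) and in 44 of the 150 others (29.3%), and in the genome the shares were 10.5% and 24.6%.

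A wider list of 25 RNA-binding and splicing regulators, among them other ELAVL and CELF genes, PTB, MBNL, Musashi, hnRNP and SR genes, was set beside the 10. In this list 23 genes had a shared region in the window, 10 had a region of all 3 antibodies, 9 had a shared region within 1 kb of the start and 19 lay above the median density of coding genes, beside 67.6%, 26.7%, 20.8% and 50% of all coding genes in the same order. Its median density was 1.85 per 100 kb, between the 0.95 of all coding genes and the 3.04 of the 10 members. The densest were Srsf2, a general splicing factor, with 7.75 per 100 kb, though its gene spans only 3.2 kb of the window and none of its 8 shared regions had all 3 antibodies, Celf5, a CELF paralogue, with 7.29 and Msi2, an RNA-binding protein of neural progenitors, with 6.89. At the other end, Elavl1 (HuR), the ubiquitous relative of the neuronal Hu genes, had 0.714 per 100 kb, and Ptbp2, the neuronal PTB paralogue, and Fmr1, the fragile X gene, had no shared region.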

How the data were processed

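The authors mapped reads to mm10 with Bowtie, removed duplicates and multiply mapped reads, and ran MACS separately on each NEUROD2 library, with the GFP library from the matching host as control. The score column deposited by the authors carries no header. It was read as 10 times the −log10 of the MACS p-value, unscaled between libraries, from the methods and its minimum of 50.0. Read depth was not used here. From the deposited lists, peaks overlapping by at least 1 bp were merged per locus, and midpoints were placed on GENCODE M21 (GRCm38) with the longest-span transcript. Positions count from 1. E-boxes were searched on both strands of the reference, which is of another strain than BALB/c. Sequences and promoters came from RefSeq (GRCm38.p6). Members and lists were chosen with earlier results of these data known. The genes named were all 10 members, each with its strongest region and the shared region closest to its start, and the 3 highest and 3 lowest by density of the wider list; others were named after their values were seen. Python 3.11.15, numpy 2.4.6, scipy 1.17.1 and pysam 0.24.0 were used, and locus assignment, merging and motif search were tested on simulated data.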

Additional observations from a re-analysis of the deposited data

How the results depend on the processing

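No paired analysis was possible because the data hold a single condition with 1 library per antibody. With a peak score of at least 100, the loci held 176 regions and 16 with all 3 antibodies, 3 members had a shared region within 1 kb of the start, and the median number of regions per locus was 10, beside 17. The gene span alone also gave a median of 10. When each antibody was left out in turn, shared regions ranged from 50 to 167, their E-box share from 64.1% to 78%, the members with a shared region within 1 kb of the start from 1 to 5, and those above the gene score threshold from 1 to 3. The low counts and the higher E-box shares came without ab1 or ab2, when a shared region must by construction hold an ab3 peak, and the member above the threshold was then Elavl2. A decay length of 1000 bp put 5 members above the threshold, and 2 remained with 50000 bp or with protein-coding starts alone, both without Celf4. The E-box share was 40.7% in the central 100 bp, 83.2% in 500 bp, 84.4% for any CANNTG and 67.7% without the seventh base. Under the alternatives, 37 values of these summary results lay within a set limit and 18 lay outside it. The limit was 1.5 times the reported count, which takes in the 2 members above. For the E-box share it was 1 SD over the antibodies (2.33). That SD comes from the peaks of each list, not from regions, and is not a replicate error. Since depth was not used, a region that ab3 did not call cannot be read as unbound.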
